A study of Homo sapiens with 9 samples.

Results

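The genes examined were 8 SR splicing factors (SRSF1, SRSF2, SRSF3, SRSF4, SRSF5, SRSF6, SRSF7 and SRSF10) and 2 CDC-like kinases (CLK1 and CLK4), 10 of the 57500 genes in the count files. They were chosen by name as splicing genes with feedback control, and each name was matched by gene identifier to all 9 libraries. All 10 passed the filter on low counts in every comparison. Their RNA was measured in HEK293T cells, a standard line derived from human embryonic kidney. One group was incubated for 5 h with 10 µM HBC530, a green fluorophore ligand that binds the Pepper RNA aptamer without a covalent bond. Another was incubated for 5 h at the same dose with MsOc3HBC, an HBC ligand with a mesyloxy-propyl handle that alkylates that aptamer, and the controls received the vehicle DMSO. Each treatment had 3 replicates, which the study's methods call biological. The profiling addressed whether these ligands alter cellular transcripts. The labels of these libraries name no transfected aptamer.

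SR proteins bind exonic enhancers with their RNA recognition motifs and recruit the spliceosome through domains rich in arginine and serine. CLK kinases phosphorylate these domains in the nucleus and so release SR proteins from nuclear speckles. Many genes of both families carry ultraconserved alternative regions, such as poison exons with early stop codons or, in CLK1 and CLK4, a coding exon whose skipping shifts the frame. Transcripts with an early stop are degraded by nonsense-mediated decay (NMD), which lets the proteins limit their own RNA. Disturbed splicing often moves this feedback, and inhibition of CLKs is known to shift CLK1 splicing.

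The sequences that follow come from exons that annotated NMD transcripts of these genes hold or skip. Whether these exons take part in the feedback was not tested. In the GENCODE annotation, NMD transcripts of the 10 genes hold 18 exons that lie within an intron of the gene's reference (MANE Select) transcript. They are in SRSF2 (1), SRSF3 (3), SRSF4 (5), SRSF6 (1), SRSF7 (4), SRSF10 (1) and CLK4 (3). Whether other transcripts of these genes also hold them, or whether they are first or last exons, was not checked. For SRSF1, SRSF5 and CLK1 there was 0 such exon. The first 3 sequences run from the first base of such an exon to the stop codon that it brings into frame, which is in capitals, on the sense strand of GRCh38. SRSF3 has a 456-base exon at chr6:36599821-36600276 (plus strand), with the stop within its first 34 bases. SRSF6 has a 268-base exon at chr20:43459153-43459420 (plus strand), with the stop within 152 bases. SRSF7 has a 449-base exon at chr2:38748898-38749346 (minus strand), with the stop within 28 bases. The last pair are a coding exon that an NMD transcript of each kinase skips, exon 4 of 13 in CLK1 (chr2:200860125-200860215, minus strand) and in CLK4 (chr5:178617344-178617434, minus strand), where the capitals mark the intronic AG before and GT after the exon. Another NMD transcript of CLK1 skips exon 10 of 13 (chr2:200855004-200855086, 83 bases, also not a multiple of a codon), which is not printed since exon 4 is the one shared by both kinases.
SRSF3 exon: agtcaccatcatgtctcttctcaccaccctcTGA
SRSF6 exon: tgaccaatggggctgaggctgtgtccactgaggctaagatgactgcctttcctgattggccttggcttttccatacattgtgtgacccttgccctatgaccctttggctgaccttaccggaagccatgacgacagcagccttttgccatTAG
SRSF7 exon: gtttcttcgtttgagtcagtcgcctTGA
CLK1 exon 4: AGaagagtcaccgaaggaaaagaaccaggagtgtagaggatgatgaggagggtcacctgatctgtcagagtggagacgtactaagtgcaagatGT
CLK4 exon 4: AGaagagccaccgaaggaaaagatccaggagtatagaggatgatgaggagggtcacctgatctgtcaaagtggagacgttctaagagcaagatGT
Both kinase exons are coding and 91 bases long, which is not a multiple of a codon. They are identical at 85 of 91 positions (93.4%), and differ by T6C, A22T, G31A, G66A, A78T and T84A, with the CLK1 base first and positions counted from 1 at the first base of the exon. All 18 NMD exons lie inside the exons counted in the deposited files. Each gene's count is therefore the sum of productive and NMD transcripts, and use of these exons was not measured here. The levels below are total counts of a gene's exons.

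The library totals lay between 28056929 and 62205366 counts, and the 10 genes took from 0.346 to 0.399% of them. Replicates differed by more than sampling noise (chi-square per gene from 5.71 to 62, where sampling alone gives 1). Replicate 3 of HBC530 (36.9) and of MsOc3HBC (48.8) stood away from the rest on the first principal component, which held 37.3% of the variance and put the other 7 libraries from -20.3 to -4.3. These 2 libraries were also the shallowest. Of the markers of the line that were looked for, VIM was at 231.6 to 289.7 CPM (counts scaled to a common library size). KRT8 was at 138.9 to 174.7 CPM, NEFM at 100.4 to 181 and KRT18 at 57.6 to 78.6, whereas PAX2 was low (2.09 to 3.84). The blood markers PTPRC, HBB and CD3E were at or near 0 (at most 0.0437 CPM). Of the fibroblast markers, COL1A1 was present at 19.4 to 35.2 CPM, LUM at 0.471 to 0.933 and DCN at no more than 0.0835.

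With DMSO, the SR factor transcripts were far more abundant than those of the kinases. In TPM, a scale that divides by the exonic length counted in the files, SRSF1 averaged 583.3 ± 50.2 (SD, n = 3). SRSF3 followed at 499.8 ± 43.7 TPM, and the ranges of these highest genes overlapped. SRSF7 (367.3 ± 8.34), SRSF2 (340.8 ± 14.4), SRSF6 (253.5 ± 9.44), SRSF4 (163.9 ± 9.02), SRSF5 (142.5 ± 2.49) and SRSF10 (84.3 ± 8.62 TPM) came next, and each of these neighbours was separated over its 3 libraries. CLK1 stood at 21.5 ± 1.97 TPM and CLK4 at 6.64 ± 0.517 TPM. Every SR factor was at or above percentile 88.6 of the genes kept in the 9 libraries, against percentile 67.1 for CLK1 and 46.1 for CLK4.

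**Figure D1:**
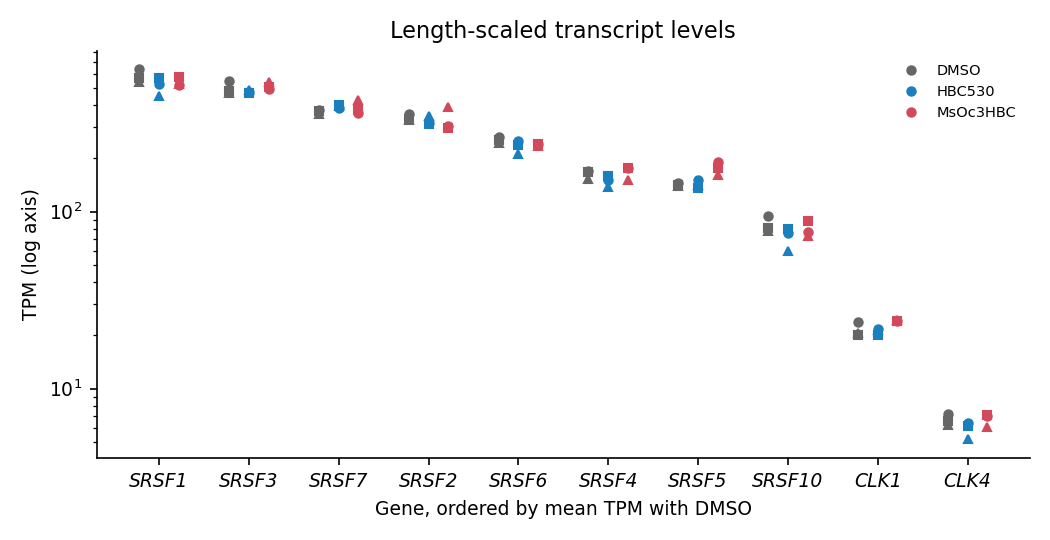
Level of each gene in TPM (log axis) in the 9 libraries, in order of the mean with DMSO; colours are treatments, and circles, squares and triangles are replicates 1, 2 and 3. SR factors lie between 59.9 and 638.6 TPM and the 2 kinases between 5.16 and 24.3 TPM under all treatments.

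The order of the SR factors depended on the length used. Per kilobase of the MANE Select transcript, the reference transcript of each gene, SRSF3 led with 245.1 ± 15.7 CPM per kilobase, followed by SRSF4 (184.6), SRSF7 (183.8), SRSF2 (158.7), SRSF5 (148.8) and SRSF1 (106.2). The exons counted for SRSF4 span 8893 bases against 2300 in the MANE transcript, and those of SRSF5 5357 against 1496. For SRSF1 the files count 3340 bases where the MANE transcript has 5343. The same counts were divided by either length, so the counted bases and the MANE length do not match. Part of the SRSF1 transcript was not counted, which lowers its value per kilobase of MANE length. SRSF10, CLK1 and CLK4 were the lowest by either length.

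The summed level of the 8 SR factors was 2435.4 ± 143 TPM with DMSO, 2311.8 ± 68.9 with HBC530 and 2434.4 ± 72.1 with MsOc3HBC (SD, n = 3). The summed level of both kinases was 28.1 ± 2.43, 27 ± 1.06 and 30.8 ± 0.473 TPM. The ranges of the SR sums overlapped between all treatments. Those of the kinase sums in TPM did not overlap between HBC530 (26.2 to 28.2 TPM) and MsOc3HBC (30.3 to 31.2 TPM), and each overlapped DMSO (26.5 to 30.9 TPM). TPM lack the library scaling used to compare treatments. In CPM, CLK1 overlapped between HBC530 (29.6 to 37.5) and MsOc3HBC (34.7 to 41.3), whereas CLK4 did not. For the sums, no share of all genes without overlap was computed. In bulk RNA, more RNA per cell and more cells that express a gene cannot be told apart.

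**Figure D2:**
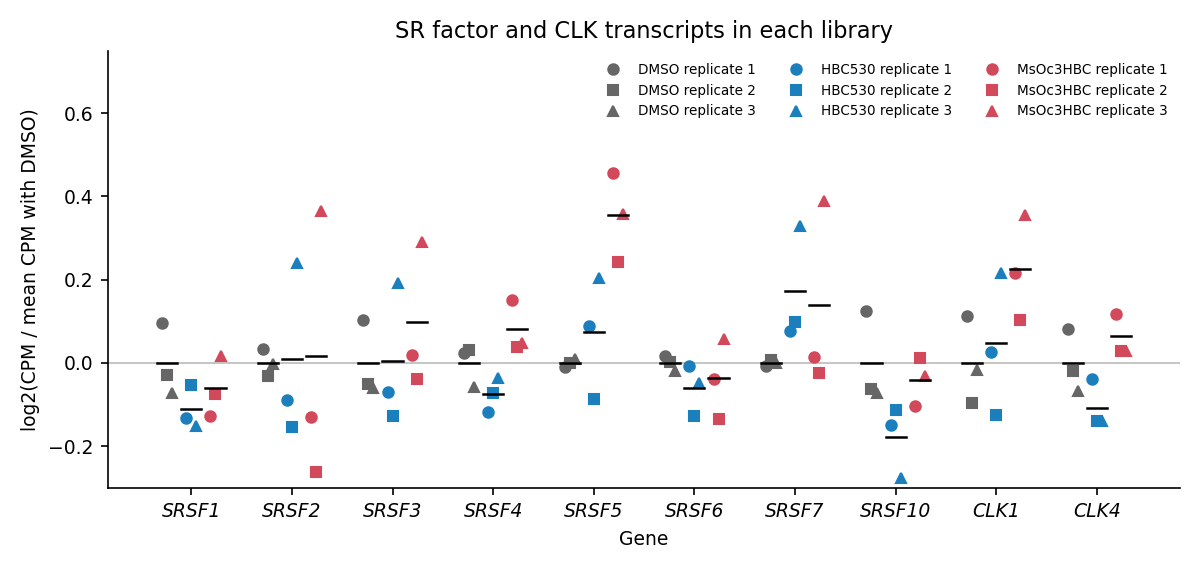
Log2 ratio of each library's CPM to the mean CPM with DMSO, for 10 genes and 9 libraries; bars are the log2 ratios of the treatment means, colours are treatments and symbols are replicates. All 3 MsOc3HBC libraries lie above the DMSO libraries for SRSF5, and replicate 3 of both ligands lies above replicates 1 and 2 for SRSF2, SRSF3, SRSF7 and CLK1.

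The first comparison asked whether the non-covalent ligand HBC530 changed these transcripts. No SR factor or kinase was called. In edgeR's quasi-likelihood test, 0 of the 10 genes reached a Benjamini-Hochberg adjusted p under 0.05, against 3 of 17684 genes (0.017%) in all. DESeq2 likewise called 0 of the 10 and 0.0892% of the genes it tested. An unadjusted p under 0.05 was reached by 0 of the 10 and by 5.07% of all genes. The median log2 fold change was -0.026 over the 10 genes and 0.005 over all genes. Adjusted p-values lay between 0.751 and 0.988, and every 95% interval lay between -0.38 and 0.37 on the log2 scale.

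SRSF7 and SRSF10 had the largest differences from DMSO. SRSF7, which acts in splicing and in mRNA export, was counted at 456.6, 463.8 and 544.1 CPM with HBC530 and at 431.2, 435 and 433.1 with DMSO (replicates 1 to 3). The HBC530 libraries were all higher, with the third far from the others, and the log2 fold change was 0.17 (SE 0.0909, edgeR adjusted p = 0.751). Without HBC530 replicate 3 it was 0.09 (adjusted p = 0.935). SRSF10, which acts as a splicing repressor when dephosphorylated after heat shock, was counted at 227.8, 233.4 and 208.5 CPM with HBC530 and at 275.4, 241.6 and 240.2 with DMSO. The HBC530 libraries were all lower, by 0.18 at the mean (log2 fold change -0.18, SE 0.0902, edgeR adjusted p = 0.751). It was -0.11 without DMSO replicate 1. With trends with GC content and length removed, the log2 fold change was -0.06 for SRSF10 and 0.21 for SRSF7 (edgeR adjusted p = 0.755 and 0.681). These were the only 2 of the 10 genes whose libraries did not overlap, and 13.8% of all genes tested had no overlap.

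The other 8 genes overlapped between HBC530 and DMSO. SRSF1, the founding member of the family, averaged 525.2 ± 19.2 CPM against 567.4 ± 35, a log2 fold change of -0.11. CLK1 averaged 33.4 ± 3.97 CPM against 32.3 ± 2.37 (0.05) and CLK4 14.2 ± 0.594 against 15.3 ± 0.818 (-0.11). SRSF2, SRSF3, SRSF4, SRSF5 and SRSF6 had log2 fold changes from -0.07 to 0.07.

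The second comparison asked the same of the alkylating ligand MsOc3HBC. Again 0 of the 10 genes passed an adjusted p of 0.05 in edgeR, where 27 of 17514 genes (0.154%) did, and 0 of the 10 in DESeq2, where 0.858% of genes did. An unadjusted p under 0.05 was reached by 1 of the 10, SRSF5, and by 10.9% of all genes. The median log2 fold change was 0.073 over the 10 genes and 0.012 over all genes. Intervals (95%) ran from -0.3 to 0.56, and those of 9 of the 10 genes stayed within 0.5 in either direction.

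SRSF5 showed the largest difference. This SR protein, which binds exonic enhancers, is encoded at chr14:69726900-69772005 (plus strand, GRCh38). Its counts were 305.3, 263.4 and 285.1 CPM with MsOc3HBC and 220.9, 222.5 and 224.1 with DMSO. All 3 treated libraries were higher than all controls, which lay close together. The log2 fold change was 0.36 (SE 0.0932, 95% interval 0.15 to 0.56), a fold of 1.28, with an unadjusted p of 0.00266 and an adjusted p of 0.241 in edgeR. Over 15 alternative settings the log2 fold change stayed between 0.302 and 0.409 and the adjusted p between 0.0552 (DESeq2) and 0.952 (without DMSO replicate 2). With HBC530 the same gene was at 236.8, 209.4 and 256.3 CPM, which overlapped DMSO (log2 fold change 0.07, adjusted p = 0.816 in edgeR).

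CLK1, encoded at chr2:200853009-200864744 (minus strand), was the next. It was counted at 37.5, 34.7 and 41.3 CPM with MsOc3HBC and at 34.9, 30.2 and 31.9 with DMSO. One MsOc3HBC library fell below the highest control, and the log2 fold change of 0.23 (SE 0.105) had an adjusted p of 0.461 in edgeR. CLK4 was at 16.6, 15.6 and 15.6 CPM against 16.2, 15.1 and 14.6, so that the groups overlapped, with a log2 fold change of 0.06. SRSF4 did not overlap (471.7, 436.3 and 439.3 CPM against 431.7, 434 and 408.3), at a log2 fold change of 0.08 (SE 0.0905, edgeR adjusted p = 0.757). SRSF4 and SRSF5 were thus the 2 of 10 genes without overlap, where 18.3% of all genes had none.

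For SRSF2, SRSF3 and SRSF7, replicate 3 of the ligands set the mean. SRSF2, whose protein stimulates splicing and transcript elongation, was counted at 273.7, 250.1 and 385.8 CPM with MsOc3HBC, at 281.7, 269.2 and 353.9 with HBC530 and at 306.8, 293.3 and 299 with DMSO. Replicate 3 was the highest library of each ligand, by 0.56 and 0.36 on the log2 scale over the mean of the other 2, whereas replicates 1 and 2 of both lay below every control. The log2 fold change of SRSF2 for MsOc3HBC against DMSO was 0.02 with all libraries and -0.19 without MsOc3HBC replicate 3 (edgeR adjusted p = 0.232). SRSF7 departed in the same way in replicate 3 (0.4 with MsOc3HBC and 0.24 with HBC530), as did SRSF3, the smallest SR protein of the family (0.3 and 0.29). Without MsOc3HBC replicate 3, the log2 fold change of SRSF7 against DMSO was 0 in place of 0.14. The departure of these libraries from the rest of their group is on the principal component too, and its part in these values was not tested. Part of the SRSF2 locus (1106 bases) overlaps exons of MFSD11 on the other strand. The mean count of MFSD11 was 9.78% of that of SRSF2, and the strand setting of the counting is not given in the sources used here.

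**Figure D3:**
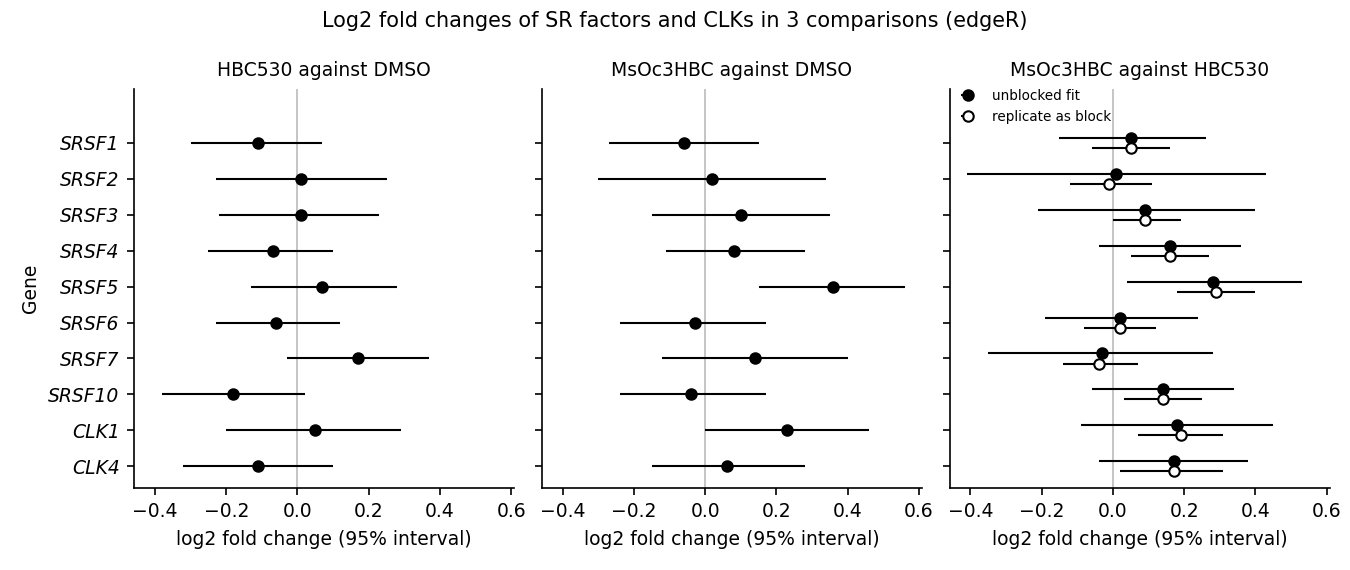
Log2 fold change of each gene with its 95% interval in the 3 comparisons (edgeR); filled points are fits without a block, and open points use the replicate number as a block. The unblocked intervals exclude 0 for SRSF5 alone, in both comparisons of MsOc3HBC (0.36 against DMSO and 0.28 against HBC530).

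The third comparison set the ligands against each other at the same dose and time, which was the 1 pair of compounds. Without a block, 0 of the 10 genes and 0 of 17397 genes in all (0%) passed an adjusted p of 0.05 in edgeR. An unadjusted p under 0.05 was reached by 1 of the 10 (SRSF5) and by 7.32% of all genes, and DESeq2 called 0.227% of genes and 0 of the 10. Libraries of the ligands with the same replicate number deviated together, so the replicate was also used as a block. The check behind this could not tell pairing from a departure shared by replicate 3 of both ligands. The blocked fit called 1990 of 17397 genes (11.4%, with 4.54% higher with MsOc3HBC) and 2 of the 10, SRSF5 and CLK1, both higher with MsOc3HBC.

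SRSF5 was higher with MsOc3HBC than with HBC530 in all 3 replicates, by 0.37, 0.33 and 0.15 on the log2 scale. The blocked log2 fold change was 0.29 (SE 0.0513, 95% interval 0.18 to 0.4, edgeR adjusted p = 0.00515), and without the block it was 0.28 (adjusted p = 0.643). Left without replicate 1, 2 or 3 of both ligands, the blocked adjusted p was 0.0145, 0.0921 and 5.69e-10, so the call did not hold without replicate 2. With so few libraries left, these p-values rest mostly on the spread shared across genes. Without replicate 3 the blocked fit called 3474 genes in all. CLK1 was higher in all 3 replicates as well, by 0.19, 0.23 and 0.14. Its blocked log2 fold change was 0.19 (SE 0.0555, 95% interval 0.07 to 0.31, edgeR adjusted p = 0.0465). This call did not hold without replicate 1 (adjusted p = 0.117) or replicate 2 (0.452) of both ligands.

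CLK4 was higher with MsOc3HBC by 0.16, 0.17 and 0.18 in replicates 1 to 3, nearly the same each time. It was not called, at a blocked adjusted p of 0.123 in edgeR. SRSF4, SRSF10 and SRSF3 were also higher in all 3 replicates, with blocked log2 fold changes of 0.16 (adjusted p = 0.0576), 0.14 (0.0897) and 0.09 (0.18). The share of all genes that were higher in all 3 replicates was not computed. SRSF4 passed without replicate 3 of both ligands (blocked adjusted p = 0.00209), in a fit that rests mostly on the spread shared across genes. SRSF1, SRSF2, SRSF6 and SRSF7 were higher with MsOc3HBC in replicate 3, by 0.06 to 0.17, and lay between -0.12 and 0 in replicates 1 and 2. Their blocked intervals together ran from -0.14 to 0.16. The libraries of SRSF4, SRSF5, SRSF10 and CLK4 did not overlap between the ligands (4 of 10 genes, all higher with MsOc3HBC, against 6.85% of all genes in that direction).

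**Figure D4:**
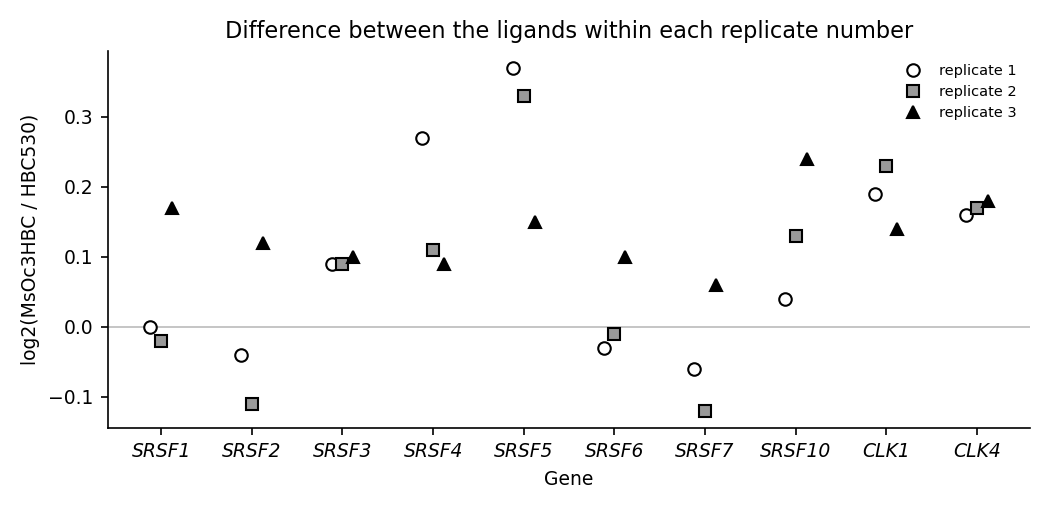
Log2 ratio of MsOc3HBC to HBC530 within each replicate number, from CPM, for the 10 genes; open circles, grey squares and black triangles are replicates 1, 2 and 3. For SRSF3, SRSF4, SRSF5, SRSF10, CLK1 and CLK4 all 3 ratios are above 0. The share of all genes with all 3 ratios above 0 was not computed.

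All 10 genes had a GC content below the median of the genes tested (37 to 46.8%, median 40.8%, against a median of 48.8% over 17389 genes). With trends with GC content and length removed in the blocked fit, SRSF5 remained higher with MsOc3HBC (log2 fold change 0.24, SE 0.0543, edgeR adjusted p = 0.0409), where 1.85% of all genes were called. Without the block, SRSF5 was not called with these trends removed (log2 fold change 0.23, SE 0.115, edgeR unadjusted p = 0.077). In the blocked fit with trends removed, CLK1 had a log2 fold change of 0.07 (adjusted p = 0.553), CLK4 of 0.02 and SRSF4 of 0.06. SRSF3 and SRSF10 were at -0.02 and -0.01 in that fit. The median of the 10 genes was 0.116 with the block (0.017 over all genes) and -0.015 with the trends removed as well (-0.015 over all genes). SRSF7 had a log2 fold change of -0.14 there, at an edgeR adjusted p of 0.171. Whether base composition accounts for the values of the other genes was not tested.

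Other splicing genes were examined as 5 lists of 51 genes: other SR proteins, other kinases of SR proteins, SR-related and early spliceosome proteins, hnRNP and other RNA-binding proteins with autoregulation, and NMD factors. With HBC530, 0 of 51 were called against DMSO by edgeR or DESeq2 at an adjusted p under 0.05, and in edgeR 1 had an unadjusted p under 0.05, against 5.07% of all genes. This was SMG1, the kinase that phosphorylates UPF1, at 73.4, 72.8 and 40.6 CPM against 94.8, 84.8 and 81.8. All 3 HBC530 libraries were lower, replicate 3 most of all (log2 fold change -0.48, SE 0.188, adjusted p = 0.751). In the other lists the smallest p belonged to TRA2A (-0.13), SRPK1 (-0.19), BCLAF1 (-0.22) and HNRNPH1 (-0.19), each with an adjusted p of 0.751.

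With MsOc3HBC, 0 of 51 were called against DMSO in edgeR, and 9 had an unadjusted p under 0.05 (7 higher and 2 lower), against 10.9% of all genes. UPF3A, a paralogue of the NMD factor UPF3B, had the smallest p, at 41.2, 35.8 and 48.2 CPM against 28.7, 29.1 and 28.5. Every MsOc3HBC library was above every control (log2 fold change 0.54, SE 0.116, edgeR adjusted p = 0.138). PNISR, an SR-related protein, was at 113.6, 91 and 107.2 CPM against 78.8, 80.9 and 75 (0.41, adjusted p = 0.224). PTBP1, the polypyrimidine tract binding repressor, was at 898.8, 976.2 and 744 CPM against 1087.8, 1136.9 and 1104.8 (-0.34, adjusted p = 0.331). SRSF11 (0.25, adjusted p = 0.448) and CLK3 (-0.19, adjusted p = 0.496) had the smallest p among the other SR proteins and the other kinases. DESeq2, which called 0.858% of the genes it tested, called 3 of the 51, all higher with MsOc3HBC. They were UPF3A (adjusted p = 0.00894), UPF3B (0.0211) and LUC7L3 (0.0179), the last pair named after their values were seen. In all 3, replicate 3 of each ligand was the highest library of its treatment.

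Between the ligands, 0 of 51 were called by DESeq2 or by edgeR without a block, and in edgeR 6 had an unadjusted p under 0.05 (4 higher and 2 lower with MsOc3HBC), against 7.32% of all genes. The smallest p in each list belonged to TRA2A (0.26), CLK3 (-0.32), PNN (0.34), HNRNPA2B1 (0.29) and SMG5 (-0.22), each at an adjusted p of 0.643. With the replicate as a block, 12 were higher and 5 lower, against 11.4% of all genes. CLK3, a kinase of the same family as CLK1 and CLK4, was at 45.1, 38.6 and 39.6 CPM with MsOc3HBC and at 50.8, 47.6 and 55.4 with HBC530. It was lower in all 3 replicates, whereas CLK1 and CLK4 were higher in all 3 (blocked log2 fold change of CLK3 -0.31, edgeR adjusted p = 0.00913). With GC and length trends removed it was the only one of the 51 still called (-0.33, adjusted p = 0.00864).

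**Figure D5:**
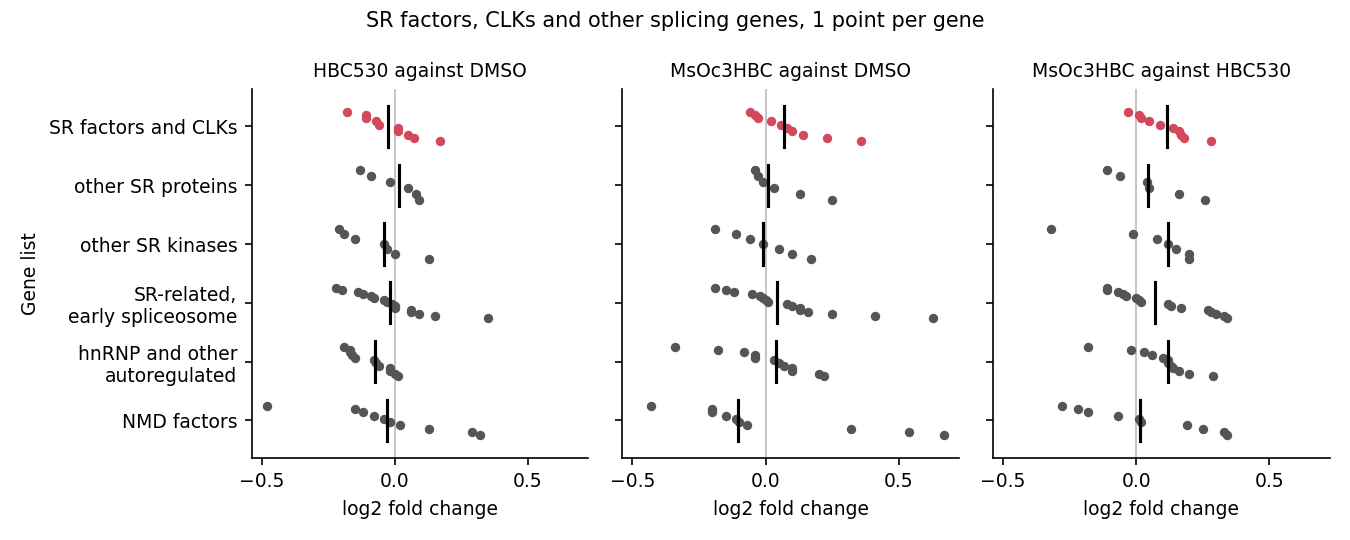
Log2 fold change of each gene in the 3 comparisons (edgeR without a block), 1 point per gene, for the 10 SR factors and CLKs (red) and the 5 other lists (grey); vertical bars are medians. Medians of the 10 genes are -0.026, 0.073 and 0.117, and the most distant points are NMD factors, SMG1 at -0.48 with HBC530 and UPF3B at 0.67 with MsOc3HBC.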

How the data were processed

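Poly(A) RNA of 9 HEK293T cultures (DMSO, HBC530, MsOc3HBC; 3 each, grouped by the labels) had been sequenced as read pairs. The authors trimmed reads with Trimmomatic 0.36, mapped them to GRCh38 with STAR 2.5.2b and counted unique gene hits with featureCounts (Subread 1.5.2), and deposited these raw counts (28056929 to 62205366 per library). Annotation release and strand setting are not given in the sources used here. Their deposited comparison tables, made with DESeq2, hold fold changes, p-values and normalized counts, and only their gene names were used here. Of 57500 IDs, 17453 took a name from these tables and 39082 from a reference table, and 965 stayed unnamed.

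The 10 genes and the 5 lists were chosen with earlier results of these data known. Counts were filtered with filterByExpr, scaled by TMM and compared 3 libraries against 3 in edgeR 4.0.16 (R 4.3.3; quasi-likelihood F test, two-sided, Benjamini-Hochberg over all genes tested, adjusted p under 0.05 a call). The 95% intervals are for the mean log2 fold change, with the spread between these libraries estimated partly from all genes. CPM use TMM-scaled totals, and TPM use the exonic length of the count files. Exon structures come from GENCODE release 44. Gene ID, chromosome, strand and the exons of NMD transcripts described above matched the files. The start or end of the gene differed for SRSF1, SRSF2, SRSF4, SRSF6, SRSF10 and CLK1. All 10 genes are named, and of each other list the gene with the smallest unadjusted p. The replicate numbers come from the labels. Deviations of MsOc3HBC and HBC530 libraries with the same number from their group means correlated at 0.167, 0.368 and 0.433 over 18041 genes, all above 0.1, so these libraries were treated as paired. Deviations within a group cancel out, so a departure shared by replicate 3 of both ligands also raises the correlations of the other replicates. These correlations therefore cannot tell pairing from such a departure. Alternatives were DESeq2 1.42.0, scaling by RLE or upper quartiles, omission of the filter, a minimum of 10 counts per library, a joint fit of the 9 libraries, the replicate block, each library left out and both ligands without replicate 3. Chosen after seeing the data were the removal of GC and length trends (splines with 5 degrees of freedom per library, with and without the block), the blocked fits without 1 replicate of both ligands and the MANE length. The fits were tested on simulated data that held neither an outlying replicate 3 nor a GC trend, so that test does not cover these.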

Additional observations from a re-analysis of the deposited data

Results flagged for a closer look

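In the blocked fit of MsOc3HBC against HBC530, the ligands differed directly in SRSF5 (log2 fold change 0.29) and CLK1 (0.19). Neither was called without the block when all libraries were kept (edgeR adjusted p = 0.643 and 0.77). In the unblocked fit without replicate 3 of both ligands, SRSF5 was called (edgeR adjusted p = 0.00801) and CLK1 was not (0.103). That fit called 1635 genes in all. In the blocked fits without replicate 1, 2 and 3 of both ligands the adjusted p was 0.0145, 0.0921 and 5.69e-10 for SRSF5 and 0.117, 0.452 and 0.0117 for CLK1. These fits have few libraries, and their p-values rest mostly on the spread shared across genes. Relative to DMSO, SRSF5 had log2 fold changes of 0.36 with MsOc3HBC and 0.07 with HBC530, and CLK1 of 0.23 and 0.05, where both comparisons share the DMSO libraries. The difference in CLK1 was 0.07 with GC and length trends removed, and the part of base composition in it was not tested further.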

How the results depend on the processing

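For both ligands against DMSO, 0 of the 10 genes were called under each of the 15 alternatives; between the ligands the calls depended on the fit, and the cause was not tested. Leaving out replicate 3 of both ligands is, against DMSO, the same fit as leaving out that of the ligand compared. Numbers shared by ligand and DMSO libraries marked no pairing (deviations correlated at 0.0871, 0.0127 and 0.172 for HBC530 and at -0.111, 0.00973 and 0.041 for MsOc3HBC), and the block there changed no call among the 10.

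Between the ligands, 2 of the 10 were called with the replicate block, 1 with the block and GC and length trends removed, 2 without replicate 3 of both ligands (SRSF4 and SRSF5), and 1, 0 and 3 in the blocked fits without replicate 1, 2 and 3 of both. Of the 51 other splicing genes, the numbers called under these settings were 17, 1, 17, 13, 3 and 24, and of all genes 1990, 321, 1635, 1692, 163 and 3474. In the other fits without a block that called any gene, all genes called were 24 with DESeq2, 12 with no filter, 4 with all 9 libraries and 1 with the trends removed. Against DMSO, other splicing genes called were 1 for HBC530 with no filter, and for MsOc3HBC 3 with DESeq2, 4 with no filter, 3 with the block and 1 with the block and trends removed. All genes called for HBC530 were 20 with DESeq2, 52 with no filter, 5 with all 9 libraries, 16 with the block, 10 with trends removed and 16 with both, and from 2 to 6 with 1 library left out (6 without HBC530 replicate 3). For MsOc3HBC they were 133 with DESeq2, 250 with no filter, 149 with the block, 62 with trends removed and 80 with both. With 1 library left out they ran from 6 to 76 (10 and 76 without MsOc3HBC replicate 1 and 3, and 6, 12 and 11 without DMSO replicate 1, 2 and 3).

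Log2 fold changes near 0 changed sign, without a call. For HBC530 against DMSO, SRSF2 was -0.005 and SRSF3 -0.008 with no filter, SRSF3 was -0.001 with DESeq2, SRSF2 was 0 with the replicate block, SRSF2 was -0.004 and SRSF4 0.035 with trends removed, and -0.01 and 0.03 with both. For MsOc3HBC against DMSO, SRSF2 was -0.006 with the block, -0.044 with trends removed and -0.063 with both. Between the ligands, SRSF2 was -0.002 with no filter and -0.006 with the block. With trends removed SRSF1, SRSF2, SRSF3, SRSF6 and SRSF10 were -0.049, -0.041, -0.021, -0.083 and -0.009, and with the block as well -0.047, -0.055, -0.018, -0.084 and -0.012. Without replicate 3 of both ligands SRSF1, SRSF2 and SRSF6 were -0.016, -0.079 and -0.026, and with the block -0.015, -0.08 and -0.026. SRSF7 was 0.004 in the blocked fit without replicate 2. With 1 library left out, the ranges that crossed 0 were, for HBC530 against DMSO, SRSF2 -0.115 to 0.084, SRSF3 -0.091 to 0.066 and CLK1 -0.04 to 0.123. For MsOc3HBC against DMSO they were SRSF2 -0.192 to 0.139, SRSF3 -0.008 to 0.162, SRSF6 -0.083 to 0.012, SRSF7 -0.003 to 0.215 and SRSF10 -0.07 to 0.026. Between the ligands they were SRSF2 -0.199 to 0.142, SRSF3 -0.012 to 0.199, SRSF6 -0.022 to 0.075 and SRSF7 -0.174 to 0.055. SRSF5 and CLK4 kept their sign in every alternative of all 3 comparisons. Before any alternative setting, standard errors of the 10 genes lay between 0.0785 and 0.181 on the log2 scale in the fits without a block. They lay between 0.0429 and 0.0671 in the blocked fit of the ligands, also with 3 libraries a treatment. Total gene counts cannot show a shift between productive and NMD transcripts.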
